A study of Mus musculus with 18 samples.

Results

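Integrins are paired alpha and beta transmembrane receptors that tie the cell to the extracellular matrix, and the integrin-linked kinase complex connects their cytoplasmic tails to actin. In cardiac muscle they sit at the costameres and carry force and signals between the sarcomere and the matrix. The 10 genes described here are 8 integrin subunits (Itgb6, Itgb1, Itgb5, Itga5, Itga6, Itga7, Itga9 and Itgav) and 2 adaptors of that complex, Ilk and Lims1. They were taken by symbol, with each probe set annotated to one of them alone, which gave 33 of the 45037 probe sets and 10 of the 18193 genes on the arrays. No filter on low values was applied, so all 33 were tested.

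The 18 Affymetrix mouse genome arrays measured RNA of the left ventricle, with atria, right ventricle and connective tissue trimmed away, from wild type female C57Bl/6 mice aged 3 to 4 months. The 6 groups were 7EX and 21EX (voluntary wheel running, 7 days and 21 days), MP (mid pregnancy, at day 11), LP (late pregnancy, at days 18 to 19), 0PP (within 12 hours of birth) and NP/Sed (sedentary virgins in diestrus). Each group had 3 arrays, and each array was a pool of RNA from 2 to 3 hearts, so n = 3 pools throughout and the spread between single hearts is not seen. NP/Sed served as the control for both running and pregnancy, so the 5 comparisons against it share their 3 control arrays. Values are RMA values on the log2 scale, a difference of 1 being a doubling, and fold changes are log2 differences ± standard error. A gene changed where at least 1 of its probe sets had a two-sided limma p under 0.05 after Benjamini-Hochberg adjustment over all probe sets. In ventricular tissue, fewer cells of a type and less RNA per cell cannot be told apart.

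Cardiomyocyte markers were bright on all arrays: at their brightest probe sets Myh6, Tnnt2, Actc1, Pln and Myl2 had values between 13.89 and 14.86. Ryr2 had 11.77 to 12.32. They were listed as markers of the cardiomyocyte, not of the ventricle alone. Of 6 cardiomyocyte markers 1 fell in each of 7EX, 21EX, MP and 0PP (Myh6 in MP, Tnnt2 in the others), each on a dimmer probe set. At their brightest probe sets Myh6 was at -0.02 in MP and Tnnt2 at -0.01 in 7EX, -0.01 in 21EX and -0.06 in 0PP. Among the arrays atrial Myl7 ranged over 8.10 to 10.98, Sln over 5.83 to 9.33 and Bmp10 over 4.42 to 4.89. Of these 3 atrial markers 0 passed in any of the 6 comparisons. How much atrial tissue remained on each array was not tested. Array medians lay between 4.93 and 5.02. The 3' minus 5' signal of beta-actin, a sign of RNA integrity, was 1.05 to 1.09 in 7EX, 1.17 to 1.22 in 21EX, 1.32 to 1.35 in MP, 1.17 to 1.28 in LP, 1.28 to 1.32 in 0PP and 1.11 to 1.36 in NP/Sed. That of Gapdh lay between -0.07 and 0.11 on all arrays. Where a 3' minus 5' signal was added to a fit below, it was the mean of the beta-actin and Gapdh signals.

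The clearest change was in Itgb6, the beta subunit that pairs with Itgav, is best known from epithelia and activates latent TGF-beta. Its level fell in late pregnancy and was higher again within 12 hours of birth. Lims1, which encodes the LIM-domain adaptor PINCH1 that binds Ilk, fell in both running groups at 1 of its 5 probe sets. Itga6, a laminin receptor subunit, was higher in 0PP than in LP. No other member gene changed except Itga9, which fell slightly in 21EX.

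By comparison, 1 of the 10 genes changed in 7EX (Lims1, lower), where 1.26% of all genes changed and 0.390% were lower. In 21EX 2 changed (Lims1 and Itga9, both lower), beside 5.16% of all genes changed and 2.21% lower. In LP 1 changed (Itgb6, lower), beside 2.97% changed and 0.770% lower among all genes. In MP and 0PP limma called 0 of the 10 genes, beside 2.11% and 3.86% of all genes. At an unadjusted p under 0.05 in limma there were 5 probe sets of 3 member genes in MP, beside 14.2% of all probe sets and 22.9% of all genes. In 0PP there were 10 probe sets of 7 member genes, beside 17.8% and 29.1%. Cyber-T, the test named in the methods, was re-implemented here and run with Benjamini-Hochberg adjustment. It called 2 genes in MP (Itgb6 and Lims1), beside 5.80% of all genes, and 1 in 0PP (Lims1), beside 5.54%. Between 0PP and LP 2 changed (Itgb6 and Itga6, both higher in 0PP), beside 1.64% changed and 1.05% higher among all genes. The members have 3.3 probe sets per gene and all genes 1.92, which gives a member more chances to be called. Of single probe sets, 1, 2, 0, 1 and 0 of the 33 passed in 7EX, 21EX, MP, LP and 0PP, beside 0.659%, 2.75%, 1.16%, 1.67% and 1.98% of all.

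The median log2 fold change of the 33 probe sets was -0.08 in 7EX, -0.07 in 21EX, -0.10 in MP, -0.14 in LP and -0.03 in 0PP, all against NP/Sed. Over all probe sets the medians were 0.00, 0.00, 0.01, -0.01 and -0.02. Of the 33, 20 lay below NP/Sed in 7EX, 21 in 21EX, 25 in MP, 25 in LP and 17 in 0PP. Among all probe sets the shares below were 49.8%, 49.7%, 47.1%, 53.3% and 54.1%, against 60.6%, 63.6%, 75.8%, 75.8% and 51.5% of the 33. Set against LP, 8 of the 33 were lower in 0PP (24.2%, beside 52% of all probe sets) and 25 higher, with a median of 0.04. Probe sets of a gene share its transcripts, so these shares are a description.

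**Figure D1:**
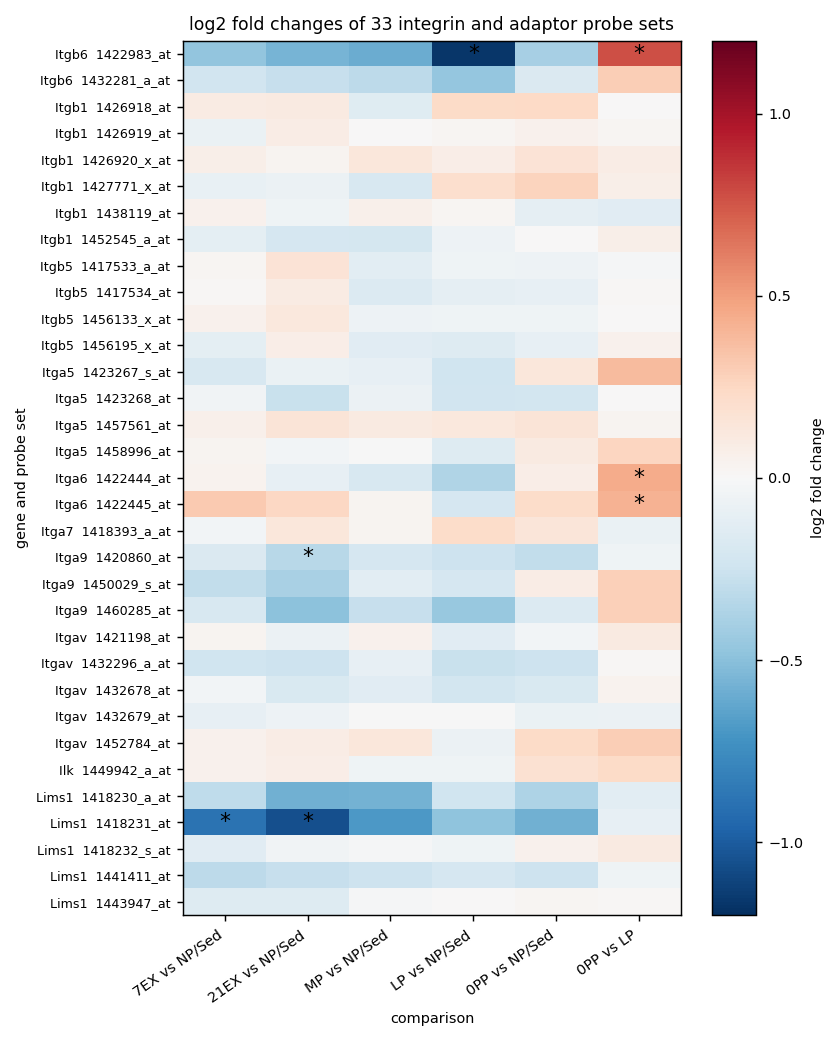
Log2 fold change (colour) of each of the 33 probe sets (rows, by gene) in 6 comparisons (columns), n = 3 arrays per group. An asterisk marks an adjusted p under 0.05. The strongest blue is Itgb6 in LP (-1.17) and the strongest red is the same probe set in 0PP against LP (0.77).

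Itgb6 has 2 probe sets on the array. Probe set 1422983_at, the brighter, had values of 5.87, 6.11 and 6.21 in 7EX, 6.25, 5.68 and 5.98 in 21EX, 6.37, 5.64 and 5.81 in MP, 5.44, 5.45 and 5.19 in LP, 6.08, 6.14 and 6.17 in 0PP, and 6.37, 6.56 and 6.66 in NP/Sed. All 3 LP arrays lay below each of the other 15 arrays, and 14 of the 15 arrays outside NP/Sed lay below its lowest array. The exception, MP-1, equalled that array to 2 decimals.

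In LP the level was 5.36 ± 0.15 (SD), against 6.53 ± 0.15 in NP/Sed, a fold change of -1.17 ± 0.16 (95% interval -1.50 to -0.84, limma adjusted p = 0.00119), so it fell by 55.5%. The change was also past the study's limit, a 75% difference taken from the lower group, which for a fall means at least 42.8%. Past that limit lay 0.423% of all genes in LP. The call held under all 11 other settings tried, with adjusted p between 1.45e-05 and 0.00853, and without each of the 18 arrays in turn, with adjusted p between 0.000267 and 0.0098.

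In 0PP the level was 6.13 ± 0.04 (SD), against 5.36 ± 0.15 in LP, a difference of 0.77 ± 0.16 (limma adjusted p = 0.0239). The arrays of the 2 groups did not overlap. This call was lost without LP-2, LP-3 or any 1 of the 0PP arrays (adjusted p 0.0632, 0.101, 0.0687, 0.11 and 0.0752) and when the 3' minus 5' signal was added to the fit (adjusted p = 0.0638, value 0.77). Over the other settings tried its adjusted p ranged from 0.000316 to that value. The difference did not reach the study's fold limit.

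The remaining 4 groups also had lower means than NP/Sed: -0.47 in 7EX, -0.56 in 21EX, -0.59 in MP and -0.40 in 0PP, with limma adjusted p of 0.181, 0.0611, 0.0757 and 0.192. Cyber-T called Itgb6 in 7EX, 21EX and MP (adjusted p 0.0308, 0.0176 and 0.024) and not in 0PP (0.0502). In 21EX it also passed in limma with an intensity trend (adjusted p = 0.0488) and over probe sets with a mean of at least 5 (0.0426). From low to high the group means were LP, MP, 21EX, 7EX, 0PP and NP/Sed. Neighbours among MP, 21EX, 7EX and 0PP overlapped in their arrays. LP differed from MP by -0.58 ± 0.16 (limma adjusted p = 0.0792, Cyber-T adjusted p = 0.0334) with no overlap of arrays, and from 21EX by -0.61 ± 0.16 (adjusted p = 0.0425). That last call was lost in 11 of the 18 omissions of an array. Of 11 other settings it was lost in 5, with adjusted p up to 0.0706.

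The dimmer Itgb6 probe set, 1432281_a_at, had a mean of 3.86, below the median of all probe sets (4.97). Its fold changes were -0.23 in 7EX, -0.28 in 21EX, -0.32 in MP, -0.47 in LP and -0.17 in 0PP, and 0.30 in 0PP against LP. None of these passed (limma adjusted p = 0.111 in LP), and the 3 LP arrays (3.55 to 3.71) lay below the 3 NP/Sed arrays (3.90 to 4.37).

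Since Itgb6 is known from epithelia, the epithelial markers Epcam, Cdh1, Krt8, Krt18 and Krt19 were set beside it. None of the 5 passed in any of the 6 comparisons by limma, and in LP 0 of them had an unadjusted p under 0.05. Their summed signal (log2 of the sum) was 7.37 to 7.39 in LP and 7.25 to 7.54 in NP/Sed, and 3 of the 5, Cdh1 among them (mean 2.81), had means below the median of all probe sets.

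**Figure D2:**
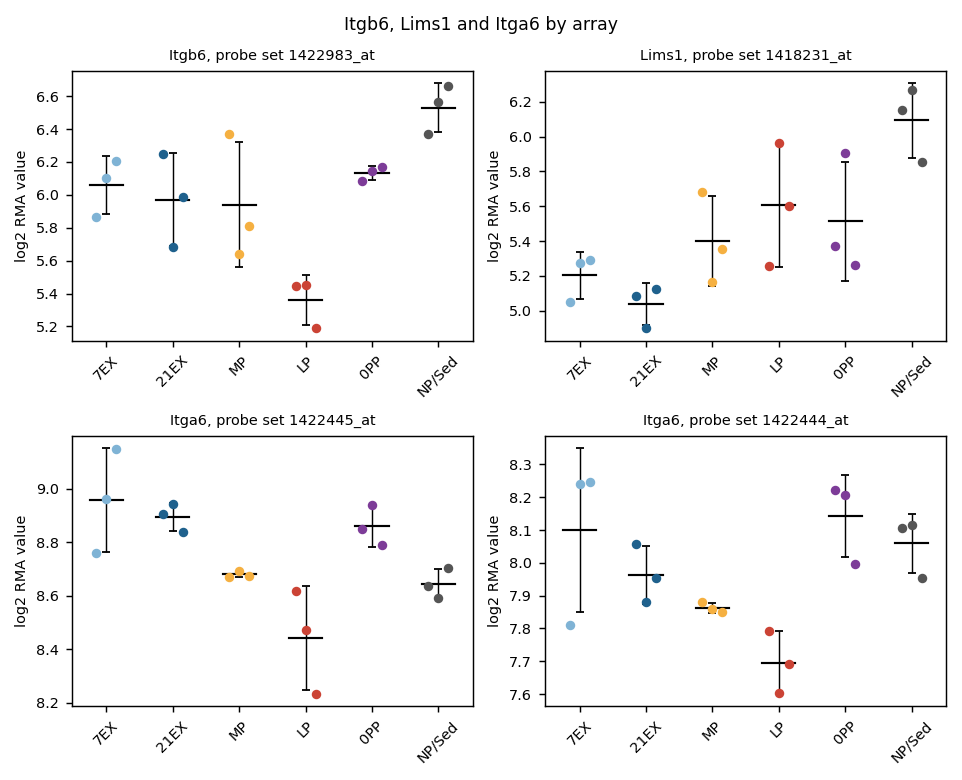
RMA values (log2) of single arrays (points) with the group mean (bar) and SD (whiskers), n = 3 arrays per group, for Itgb6, Lims1 and both Itga6 probe sets. The 3 LP arrays of Itgb6 (5.19 to 5.45) lie below all others, and the 21EX arrays of Lims1 (4.90 to 5.13) lie below its NP/Sed arrays (5.85 to 6.27). The vertical scale differs between panels and does not start at 0.

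The sequence just upstream of the annotated starts of Itgb6 and, further on, of Lims1 is shown because these are the 2 genes with a change past the study's limit. RefSeq (GRCm38.p6) windows were present for 8 of the 10 members, with 12 starts. The last 150 bases before each start are printed 5' to 3' on the gene's strand, with CG dinucleotides in capitals.
Itgb6 start 1, chr2:60722604-60722753, minus strand: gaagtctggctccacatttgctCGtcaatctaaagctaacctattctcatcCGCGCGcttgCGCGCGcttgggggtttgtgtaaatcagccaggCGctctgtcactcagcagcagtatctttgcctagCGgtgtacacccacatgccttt
Itgb6 start 2, chr2:60673694-60673843, minus strand: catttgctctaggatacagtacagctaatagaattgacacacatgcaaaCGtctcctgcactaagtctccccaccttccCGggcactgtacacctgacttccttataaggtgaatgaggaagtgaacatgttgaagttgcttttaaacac
The first Itgb6 window holds 9 CG dinucleotides and the second 2, where the median over 32851 starts was 4.

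A few short motifs were counted on both strands: the GC box GGGCGG, the AP-1 site TGANTCA and the TATA box TATAAA, none of which contains another. They occur in 28.6%, 4.24% and 7.57% of all windows of this length. None was found in the Itgb6 windows, which says only that these letters are absent from 150 bases.

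Lims1 encodes a protein of LIM domains that joins Ilk and the parvins in one complex at focal adhesions. Its lead probe set, 1418231_at, had values of 5.05, 5.27 and 5.29 in 7EX, 5.08, 4.90 and 5.13 in 21EX, 5.68, 5.17 and 5.36 in MP, 5.26, 5.97 and 5.60 in LP, 5.37, 5.90 and 5.26 in 0PP, and 6.16, 6.27 and 5.85 in NP/Sed. Both running groups lay wholly below NP/Sed, as did MP, while LP-2 and 0PP-2 reached into its range.

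The fold change was -1.06 ± 0.18 in 21EX (95% interval -1.43 to -0.68, limma adjusted p = 0.0119) and -0.89 ± 0.18 in 7EX (-1.26 to -0.52, adjusted p = 0.0299). Expressed as a percentage, the level fell by 51.9% in 21EX and fell by 46.0% in 7EX. Both were past the study's fold limit, past which 0.720% and 0.220% of all genes lay in 21EX and 7EX. The 2 running groups differed by -0.17 ± 0.18 (21EX minus 7EX, 95% interval -0.54 to 0.20, limma adjusted p = 0.905). In MP the fold change was -0.69 ± 0.18 (adjusted p = 0.0647), in LP -0.49 ± 0.18 (0.21) and in 0PP -0.58 ± 0.18 (0.0918).

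The 7EX call was lost with the 3' minus 5' covariate (fold change -0.83, adjusted p = 0.181) and without 7EX-1, 7EX-2, 7EX-3, NP/Sed-1 or NP/Sed-2, over a range of adjusted p from 0.0179 to 0.122 across the 18 omissions. The 21EX call was lost only without 21EX-2 among the omissions (adjusted p = 0.0509). Over the other settings the adjusted p lay between 0.000229 and 0.447 in 7EX and between 5.14e-05 and 0.0641 in 21EX, the highest in each being that of the brightest probe set, described next.

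The 5 Lims1 probe sets did not move alike. The brightest, 1418230_a_at (mean 9.66), had fold changes of -0.31 in 7EX, -0.58 in 21EX, -0.57 in MP, -0.24 in LP and -0.37 in 0PP, with a limma adjusted p of 0.0641 in 21EX and 0.0975 in MP. On this probe set 14 of the 15 arrays outside NP/Sed lay below its lowest array (9.94). Probe set 1418232_s_at (mean 9.44) had -0.14, -0.04, -0.02, -0.05 and 0.06 in the same order of groups. Its suffix is Affymetrix's mark for probes shared by several transcripts.

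The last 2 Lims1 probe sets did not pass either. Probe set 1441411_at had 13 of the 15 arrays below NP/Sed with group means of 5.55 to 5.66, against 5.86 in NP/Sed. Probe set 1443947_at had group means of 5.93 to 6.11, against 6.09 in NP/Sed. Averaged over its 5 probe sets, Lims1 was at -0.36 ± 0.10 in 7EX (limma adjusted p = 0.0994) and -0.42 ± 0.10 in 21EX (adjusted p = 0.0367).

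**Figure D3:**
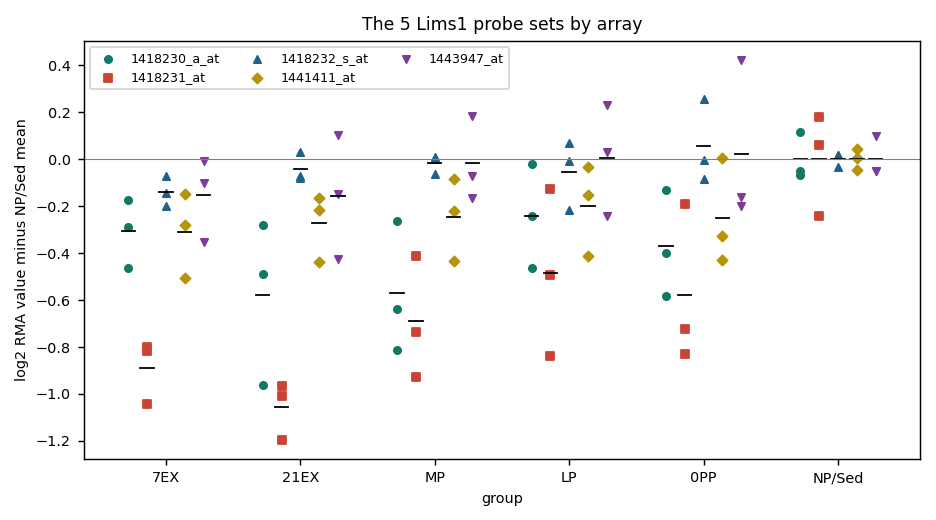
Log2 RMA value minus the NP/Sed mean of the same probe set for each array (points) and group mean (bars), n = 3 arrays per group, for the 5 Lims1 probe sets (markers). Probe set 1418231_at reaches -1.06 in 21EX while 1418232_s_at stays between -0.14 and 0.06 in the group means.

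Lims1 has 3 annotated starts, shown in the same way because they differ widely in CG content.
Lims1 start 1, chr10:58323397-58323546, plus strand: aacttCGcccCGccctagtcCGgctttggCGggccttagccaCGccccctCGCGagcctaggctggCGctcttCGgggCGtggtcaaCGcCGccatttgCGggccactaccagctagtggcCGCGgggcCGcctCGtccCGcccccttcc
Lims1 start 2, chr10:58351813-58351962, plus strand: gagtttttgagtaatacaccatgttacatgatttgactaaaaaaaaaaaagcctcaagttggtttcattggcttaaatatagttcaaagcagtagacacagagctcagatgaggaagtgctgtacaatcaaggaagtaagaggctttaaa
Lims1 start 3, chr10:58371304-58371453, plus strand: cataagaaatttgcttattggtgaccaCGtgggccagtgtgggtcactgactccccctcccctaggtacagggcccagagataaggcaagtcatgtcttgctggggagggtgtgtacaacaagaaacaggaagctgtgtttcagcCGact
The first window holds 18 CG dinucleotides, more than 90.8% of all starts have, and 2 matches to the GC box. The second holds 0 and the third 2, with no match to any of the 3 motifs. Which start a probe set reads was not tested.

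Itga6 pairs with Itgb1 or Itgb4 as a receptor for laminin, a major protein of the basement membrane. Its probe set 1422445_at had values of 8.76, 8.96 and 9.15 in 7EX, 8.90, 8.94 and 8.84 in 21EX, 8.67, 8.69 and 8.68 in MP, 8.62, 8.47 and 8.23 in LP, 8.85, 8.94 and 8.79 in 0PP, and 8.64, 8.59 and 8.70 in NP/Sed. The 0PP arrays lay above all LP and all NP/Sed arrays, and LP overlapped NP/Sed at LP-1.

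The level was higher in 0PP than in LP by 0.42 ± 0.10 (limma adjusted p = 0.0494), and lower in LP than in 21EX, the change being -0.45 ± 0.10 (adjusted p = 0.0134). Against NP/Sed the fold changes were 0.31 in 7EX, 0.25 in 21EX, 0.04 in MP, -0.20 in LP and 0.22 in 0PP, and none passed. In order from low to high, the means were those of LP, NP/Sed, MP, 0PP, 21EX and 7EX. Arrays of NP/Sed and MP overlapped, as did those of 0PP, 21EX and 7EX. MP and 0PP did not overlap, a contrast that was not tested.

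The second Itga6 probe set, 1422444_at, had values of 7.81, 8.24 and 8.25 in 7EX, 8.06, 7.88 and 7.95 in 21EX, 7.88, 7.86 and 7.85 in MP, 7.79, 7.60 and 7.69 in LP, 8.22, 8.21 and 7.998 in 0PP, and 8.11, 8.11 and 7.96 in NP/Sed. The 3 LP arrays were the lowest of the 18. Its level was higher in 0PP than in LP by 0.45 ± 0.10 (limma adjusted p = 0.048), and in LP its fold change against NP/Sed was -0.36 ± 0.10 (adjusted p = 0.0925).

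Both Itga6 calls between 0PP and LP lay close to the threshold. Each held in only 3 of the 18 omissions of an array, where adjusted p reached 0.21 for 1422444_at and 0.225 for 1422445_at. Each was lost in 5 of the 11 other settings, among them the fold limit, only those groups fitted and the 3' minus 5' covariate. The log2 difference itself stayed between 0.32 and 0.52 over the omissions. As the mean of the 2 probe sets, Itga6 was higher in 0PP by 0.43 ± 0.09 (limma adjusted p = 0.0157).

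**Figure D4:**
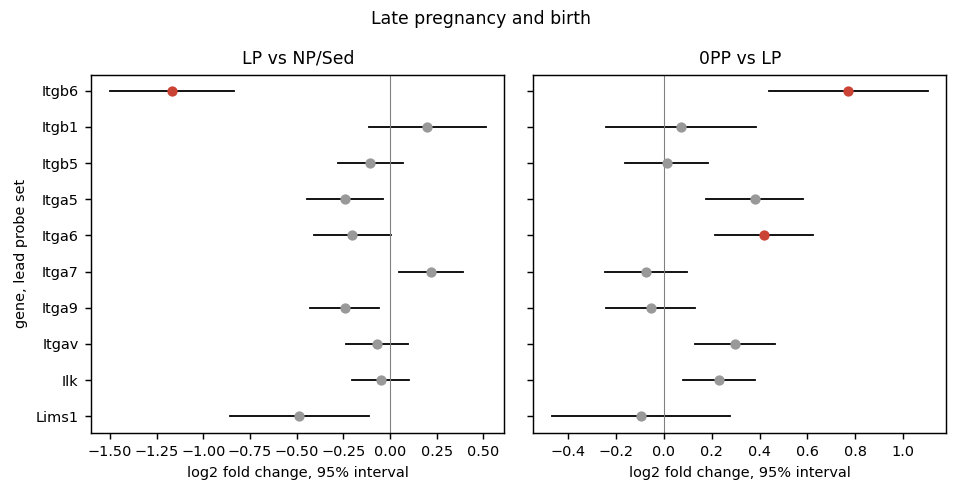
Log2 fold change (points) with its 95% interval (lines) of the lead probe set of each of the 10 genes, for LP against NP/Sed (left) and 0PP against LP (right), n = 3 arrays per group. Red points have an adjusted p under 0.05: Itgb6 at -1.17 on the left, and Itgb6 at 0.77 and Itga6 at 0.42 on the right.

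The other alpha subunits showed smaller differences. Itga9, a receptor subunit for tenascin-C and VCAM-1, had on probe set 1420860_at (mean 4.42, a dim signal) values of 4.16 to 4.40 in 21EX, and all 15 arrays outside NP/Sed lay below its lowest array (4.59). The fold change was -0.33 ± 0.09 in 21EX (limma adjusted p = 0.0495), the only one to pass, with -0.17 in 7EX, -0.20 in MP, -0.24 in LP and -0.30 in 0PP. This call was lost in 9 of 10 other settings and 15 of 18 omissions of an array, with adjusted p up to 0.175. The setting in which it held was the mean of the 3 Itga9 probe sets, at -0.41 ± 0.10 in 21EX (limma adjusted p = 0.0365). Cyber-T also called Itga9 in 21EX, but not on 1420860_at (adjusted p = 0.0799). The brightest Itga9 probe set, 1460285_at, had -0.49 ± 0.16 in 21EX (limma adjusted p = 0.1) and -0.46 ± 0.16 in LP (adjusted p = 0.197).

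Itga5, which with Itgb1 forms the classical fibronectin receptor, had on its brightest probe set 1423267_s_at levels of 6.92 to 7.37 in 0PP, 6.63 to 6.86 in LP and 6.94 to 7.03 in NP/Sed. It was higher in 0PP than in LP by 0.38 ± 0.10 with no overlap of arrays, but did not pass (limma adjusted p = 0.0786). The suffix of this probe set marks probes shared by several transcripts. Averaged over its 4 probe sets, Itga5 was higher in 0PP by 0.17 ± 0.07 (limma adjusted p = 0.291). Itgav, the alpha partner of Itgb6 and Itgb5, had on its brightest probe set 1452784_at 9.12 to 9.20 in 0PP, 8.81 to 8.95 in LP and 8.73 to 9.08 in NP/Sed, a difference of 0.30 ± 0.08 between 0PP and LP (adjusted p = 0.0973). Against NP/Sed this probe set was at -0.07 ± 0.08 in LP, where Itgb6 fell. The other Itgav probe sets all had means below the median of all probe sets. Averaged over its 5 probe sets, Itgav was at -0.14 ± 0.06 in LP (limma adjusted p = 0.252). Itga7, the laminin receptor subunit of striated muscle, had 8.71 to 8.91 in LP and 8.55 to 8.61 in NP/Sed, a fold change of 0.22 ± 0.08 (limma adjusted p = 0.218).

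The beta subunits other than Itgb6 did not pass in any comparison. Itgb1, the partner of most alpha subunits in the myocyte, had 8.82 to 9.30 in LP and 8.92 to 9.39 in NP/Sed on its brightest probe set 1452545_a_at, with fold changes between -0.21 (MP) and 0.01 (0PP) and a standard error of 0.12. Its NP/Sed-1 array (9.39) stood above the other 2 (8.92 and 8.92). Of its 6 probe sets 3 had means near 3, far under the median of all. Itgb5, which pairs with Itgav to bind vitronectin, had fold changes between -0.06 (MP) and 0.13 (21EX) on its brightest probe set 1456133_x_at. The suffix of that probe set and of 1427771_x_at of Itgb1 marks probes that can match other transcripts, so their values are less certain.

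Ilk, the pseudokinase that binds the tails of beta integrins, had 9.03 to 9.12 in 0PP, 8.82 to 8.87 in LP and 8.80 to 9.002 in NP/Sed on its single probe set. Its fold changes against NP/Sed were 0.05 in 7EX, 0.08 in 21EX, -0.05 in MP, -0.05 in LP and 0.18 in 0PP, each with a standard error of 0.07, and the difference between 0PP and LP was 0.23 ± 0.07 (limma adjusted p = 0.19). In 21EX, where its partner Lims1 fell by 1.06 on 1 probe set, the 95% interval for Ilk was -0.07 to 0.23.

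**Figure D5:**
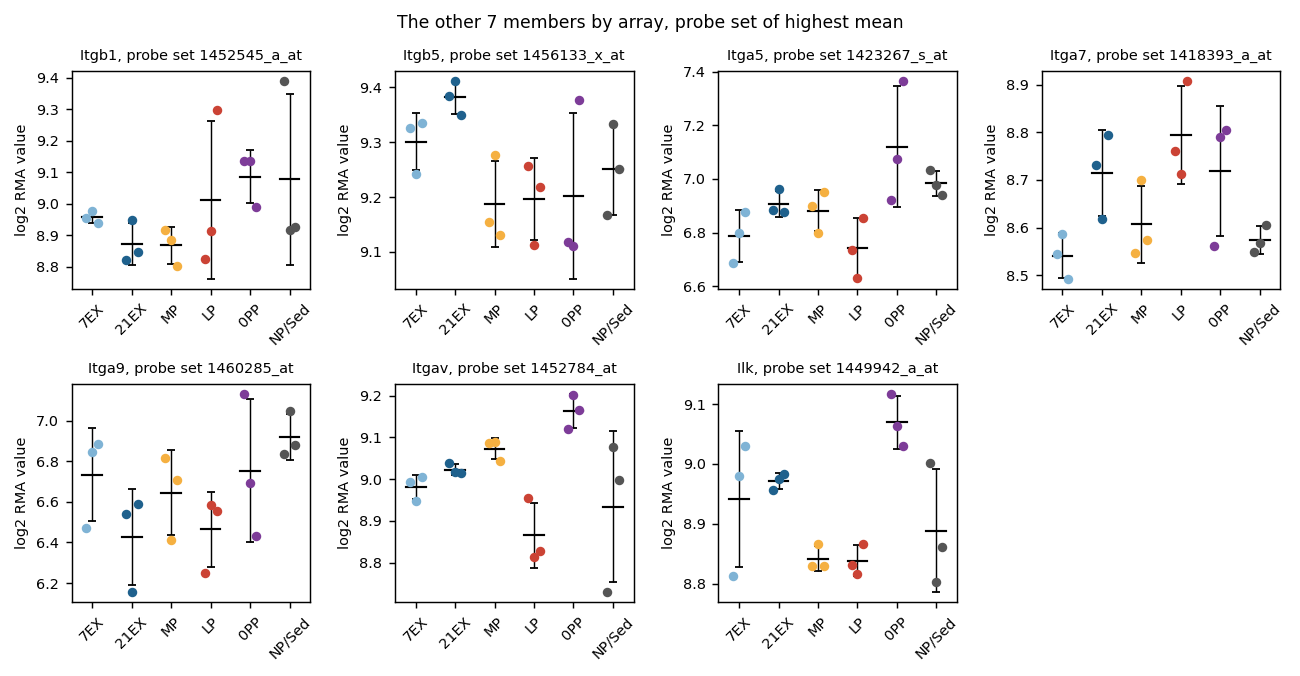
RMA values (log2) of single arrays (points) with group mean (bar) and SD (whiskers), n = 3 arrays per group, for the brightest probe set of the 7 other genes. No comparison against NP/Sed passed on these probe sets, and the 0PP arrays of Itgav (9.12 to 9.20) and Ilk (9.03 to 9.12) lie above all their LP arrays. The vertical scale differs between panels and does not start at 0.

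In contrasts between the stimulated groups, limma called 0 member genes in LP against MP, beside 2.57% of all genes, and 0 in 21EX against 7EX, beside 0.00550% of all genes. At an unadjusted p under 0.05 in limma there were 6 probe sets of 5 genes in the first, beside 13.7% of all probe sets and 23.0% of all genes, and 3 probe sets of 3 genes in the second, beside 6.39% and 11.5%. Cyber-T called 1 member in the first (Itgb6), beside 4.79% of all genes, and 0 in the second, beside 0.0495%. In LP against 21EX 2 changed (Itgb6 and Itga6, both lower in LP), beside 5.22% changed and 3.11% lower among all genes. Cyber-T called 3 there, Lims1 besides these, and its share among all genes was not counted. At 1418231_at Lims1 was higher in LP than in 21EX by 0.57 ± 0.18 (limma adjusted p = 0.0965), with no overlap of arrays.

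Other genes of the pathway were counted from lists of integrin subunits, adhesion adaptors and ligands. Of 16 other integrin subunits measured, 0 changed in 7EX, 1 in 21EX, 1 in MP, 0 in LP and 1 in 0PP. The 1 that rose in MP and in 0PP was Itgb2, the leukocyte beta subunit, by 0.71 ± 0.15 (limma adjusted p = 0.0266) and 0.69 ± 0.15 (0.0272). Itgae, the alpha subunit of intraepithelial lymphocytes, fell in 21EX by 0.28 on a dim probe set. At an unadjusted p under 0.05 there were 4 of the 16 in 7EX and 2 in LP (limma). Here and below, the share of all genes at an unadjusted p was not counted in 7EX, 21EX or LP. Such counts there cannot be set against a background.

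Of 33 other adaptors and kinases, 1 fell in 7EX, 1 rose in 21EX, 2 rose in MP, 0 changed in LP (9 at an unadjusted p under 0.05, limma) and 3 rose in 0PP. Fermt3, the kindlin of blood cells, rose by 0.78 ± 0.12 in MP (limma adjusted p = 0.00632) and by 0.56 ± 0.12 in 0PP (0.0299). Flna, the actin crosslinker filamin A, was higher in 0PP by 0.44 against NP/Sed and by 0.42 against LP. Itgb1bp1, which binds the Itgb1 tail, rose by 0.36 in 21EX and 0.43 in 0PP, and Tns2, a tensin, fell by 0.32 in 7EX.

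Since Itgb2 and Fermt3 are known from white blood cells, markers of these were set beside them. Of 6 leukocyte markers 2 rose in 7EX, 2 in 21EX, 4 in MP, 0 in LP and 2 in 0PP, and 5 of the 6 had an unadjusted p under 0.05 in LP. Their summed signal was 11.79 to 11.98 in 7EX, 11.80 to 11.96 in 21EX, 11.78 to 11.93 in MP, 11.55 to 11.88 in LP and 11.68 to 11.73 in 0PP, against 11.36 to 11.62 in NP/Sed, and 0 of the 6 had a mean below the median of all probe sets. Itgb2 was at 0.44 in 7EX and 0.52 in 21EX (limma adjusted p = 0.185 and 0.066). Fermt3 was at 0.21 and 0.37 in the same groups (0.502 and 0.103). Neither gene was compared directly between the running groups and MP. The part of these cells in the rises of Itgb2 and Fermt3 was not tested.

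Erythroid, lymphatic and adipocyte markers also moved in groups with changes reported here. Alas2, an enzyme of heme synthesis in red cells, rose by 1.46 in MP and by 0.60 in 0PP, and was higher in 0PP than in LP by 0.95 ± 0.13 (limma adjusted p = 0.00177), the comparison in which Itgb6 and Itga6 were higher. The 2 erythroid markers measured summed to 7.80 to 7.94 in 0PP, 6.72 to 7.11 in LP and 7.14 to 7.38 in NP/Sed, and both rose in MP. Of 3 lymphatic markers Lyve1, also found on macrophages, rose by 0.97 in MP, 0.92 in LP (limma adjusted p = 0.00199) and 1.02 in 0PP, while Prox1 fell by 1.16 in MP. Their sum was 9.50 to 9.70 in LP and 9.16 to 9.52 in NP/Sed. Of 2 adipocyte markers, both with means below the median of all probe sets, Adipoq rose by 2.46 in MP, where their sum was 5.48 to 7.52, against 4.29 to 4.83 in NP/Sed. The part of these cells in the changes of Itgb6, Itga6, Itgb2 and Fermt3 was not tested.

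Of 24 ligands, 0 changed in 7EX, 1 rose in 21EX, 0 changed in MP, 2 rose and 1 fell in LP, and 5 rose in 0PP. Between 0PP and LP 1 changed (Lama5, a laminin chain, lower in 0PP), beside 1.64% of all genes. At an unadjusted p under 0.05 there were 10 in 7EX and 10 in MP (limma), the latter beside 22.9% of all genes. Vcam1, a ligand of Itga9, rose by 0.76 ± 0.17 in LP (limma adjusted p = 0.0298) and by 0.98 ± 0.17 in 0PP (0.0117). Tnc, tenascin-C, rose by 0.68 ± 0.12 in 0PP (adjusted p = 0.0124). Vtn, vitronectin, the ligand of Itgav with Itgb5, rose by 0.38 in 21EX, and Col4a1, a basement membrane collagen, fell by 0.41 in LP. At an adjusted p under 0.05, the shares of all genes that passed in 7EX, 21EX, MP, LP and 0PP are those given above, 1.26% to 5.16%.

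Among fibroblast markers 3 of 6 were higher in 0PP than in LP (Tcf21, Col1a2 and Col1a1) and 1 was lower (Dcn), in the comparison in which Itgb6 and Itga6 were higher. Of all genes 1.64% changed there. At the brightest probe sets Tcf21 was at 0.43, Col1a2 at 0.47, Col1a1 at 0.56 and Dcn at -0.17. The lead Dcn probe set, at -0.59, was dimmer (mean 5.82). The summed signal of the 6 was 13.37 to 13.53 in 0PP and 13.37 to 13.55 in LP. Against NP/Sed 0, 1 and 2 of the 6 rose in 7EX, 21EX and MP, 1 rose and 1 fell in LP, and 2 rose in 0PP. The rise in LP was that of Dcn, at 0.72 on its lead probe set and 0.17 on its brightest. The fall was that of Col1a1, at -0.76 and -0.42. Of 5 endothelial markers 0 passed in any of the 6 comparisons by limma (at most 4 at an unadjusted p under 0.05, in 21EX). Their part in the 2 changes was not tested.

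The genes most like Itgb6 and Lims1 over the 18 arrays were named as a description, by Pearson's r of single-gene probe sets with each lead probe set. For Itgb6 they were Tbc1d9b (r = 0.85), Ptp4a2 (0.82), Rasgrp3 (0.82), Plpp3 (0.81) and Rpf2 (0.81). Their fold changes in LP were -0.40, -0.72, -0.48, -0.14 and -0.48, in that order. For Lims1 they were Rbm25 (r = 0.93), Nfia (0.92), Ezh1 (0.91), Pvr (0.91) and Msi2 (0.91), with fold changes in 21EX of -1.34, -0.90, -0.83, -0.50 and -0.91. The points share arrays and group means, so these r have no p.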

How the data were processed

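The authors deposited log2 values for 18 arrays, made from the scanned images by robust multi-array averaging (RMA: background correction, quantile normalization and summary per probe set) in R. Of 45101 rows the 64 control probe sets were left out. GEO's platform annotation gave 1 gene for 34945 of the 45037 tested (34741 of them matched to the RefSeq table), several for 932 and none for 9160. No probe set of several genes named a member. Arrays give no read depth, so the number of arrays limits the precision.

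One linear model over the 6 groups was fitted in limma 3.58.1 under R 4.3.3, with two-sided moderated tests on 12 residual plus 6.45 prior degrees of freedom and Benjamini-Hochberg adjustment over all probe sets in each comparison. The study itself used Cyber-T, of which a re-implementation was run here. The lead probe set of a gene has its smallest F-test p. All 10 members are named, with up to 4 genes of each list that passed and the 5 genes most like Itgb6 and Lims1. The members and lists were chosen with earlier results of these data known. The fit was tested on simulated data. Whether replicates came from separate batches of mice is not stated beyond their being pools, so p-values measure the spread between pools. Same-numbered arrays of different groups deviated with correlations of -0.27 to 0.18 (mean -0.03), so the numbers did not pair them. Alternatives were the fold limit, the brightest probe set alone, only the groups compared, Cyber-T (window 101, prior weight 10), an intensity trend, a mean of at least 5, median centring, repeated quantile normalization, gene means, a replicate block, a 3' minus 5' covariate and each array left out. Marker lists of epithelial, leukocyte, fibroblast, endothelial, erythroid, lymphatic, adipocyte, atrial and cardiomyocyte cells are described beside the results.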

Additional observations from a re-analysis of the deposited data

Results flagged for a closer look

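Differences between stages or stimuli that passed a direct test in limma concerned Itgb6 and Itga6. Over 18 omissions of an array, the calls between 0PP and LP held in 13 for Itgb6 and in 3 for each Itga6 probe set. Those between LP and 21EX held in 7 for Itgb6 and in 16 for Itga6. Itgb6 (1422983_at) was higher in 0PP than in LP by 0.77 ± 0.16 (limma adjusted p = 0.0239), so its fold changes against NP/Sed differed between the day of birth (-0.40) and late pregnancy (-1.17). The same test gave 0.45 ± 0.10 (adjusted p = 0.048) for Itga6 at 1422444_at and 0.42 ± 0.10 (adjusted p = 0.0494) at 1422445_at. Between late pregnancy and 21 days of running, the difference (LP minus 21EX) was -0.61 ± 0.16 for Itgb6 (limma adjusted p = 0.0425) and -0.45 ± 0.10 for Itga6 at 1422445_at (adjusted p = 0.0134). In each of the 5 the arrays of the groups compared did not overlap (3 against 3). The 5 were chosen for passing in these same arrays, so this adds no support. The share of all probe sets without overlap was not counted.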

How the results depend on the processing

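The fall of Itgb6 in LP held under each setting tried. Of 260 values of 9 single probe set results under other settings, 159 kept direction and side of the threshold, 0 reversed, and the rest kept their direction but did not pass. Counts of member genes moved as follows, and the cause was not tested except where a setting removes probe sets, arrays or groups by construction. In 7EX the 1 gene became 0 with the brightest probe set only, gene means or the 3' minus 5' signal in the fit, and 2 with Cyber-T. In 21EX the 2 became 0 with the brightest probe set only, and 1 with the fold limit, only the groups compared, repeated quantile normalization, median centring or the 3' minus 5' signal. Cyber-T called 3 there (Itgb6 added), and an intensity trend and a mean of at least 5 called 2 each, Itgb6 in place of Itga9. In MP the 0 became 2 with Cyber-T and 1 with an intensity trend, in LP the 1 became 2 with repeated quantile normalization (Itga6 added), and in 0PP the 0 became 1 with Cyber-T. Between 0PP and LP the 2 became 0 with the fold limit and with the 3' minus 5' signal, 1 with only those groups fitted, and 4 with a mean of at least 5 (Itga5 and Itgav added). With a replicate block, under numbers that do not pair the arrays (2 of 18 arrays lay closest to one of their own number), the count was 1 in 21EX and 1 between 0PP and LP, and the other counts did not move. Leaving out 1 array gave 0 to 1 in 7EX, 0 to 3 in 21EX, 0 to 2 in MP, 1 to 2 in LP, 0 to 1 in 0PP and 0 to 2 between 0PP and LP. In 21EX the count was 0 without 21EX-2 and 1 without 7EX-1, 7EX-2, 7EX-3, 21EX-3, MP-3, LP-3, 0PP-1, 0PP-2, 0PP-3, NP/Sed-1 or NP/Sed-3. In MP it was 2 without MP-1 and 1 without LP-1, LP-2 or 0PP-2. In LP it was 2 without 7EX-1 or NP/Sed-2, and in 0PP 1 without NP/Sed-2. Between 0PP and LP it was 0 without LP-2, LP-3 or 0PP-2, 2 without 7EX-1, 7EX-3, LP-1 or NP/Sed-1 (there Itgav and Itgb6), and 1 without any other array. The 3 arrays of a group limit the precision.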
